A study of Mustela putorius furo and Mus musculus with 4 samples.

Results

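The 7 genes described here, Pax6, Emx1, Emx2, Lhx2, Dmrta2, Dmrt3 and Nr2f1, encode transcription factors that pattern the embryonic cortex. They were taken by symbol, and all 7 were found among 17170 genes of the mouse table and, in upper case, among 22008 genes of the ferret table. The mouse cells came from E18 cortex of 2 genotypes with 1 library each. One was hGFAP-Cre;Smo F/F (Smo-cKO), where the human GFAP promoter drives Cre in radial glial (RG) cells and thus removes Smo from them and from what they produce. The other was Smo F/F without Cre (control), so both carried the floxed alleles, although the labels call this group wild type, and the labelled strain was CD1. CellTrace Yellow, a dye that the labels call Flash-Tag and that enters cells lining the ventricle, had been injected at E17, and only cells carrying it went into the libraries. The ferret cells came from both hemispheres of 1 wild type embryo at E39, and carried 2 barcode suffixes (sets 1 and 2) that are not replicate animals. Each transcript was counted once by its unique molecular identifier (UMI), and levels are summed UMIs of a cell type per 1000000 UMIs of that type (CPM).

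Cortical area identity is laid down in RG by transcription factors that form gradients across the cortical sheet, and their opposing levels set where frontal, sensory and visual areas arise. Emx2, Dmrta2 and Dmrt3 are known to be highest medially and caudally, Pax6 rostrally and laterally, and Nr2f1 (COUP-TFI) caudally and laterally, while Lhx2 selects cortical over hem and antihem fate and Emx1 marks the dorsal lineage that makes pyramidal neurons. Sonic hedgehog (SHH), one of the signals that reach these progenitors, acts through the membrane protein SMO.

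Of these factors, Emx1 and Emx2 are paralogs, as are Dmrta2 and Dmrt3, and Nr2f1 has the relative Nr2f2. The longest stretch that each pair has in common is shown because a read wholly within it could come from either gene. A read reaching past it would also hold bases that differ. Sequences and places come from the GENCODE annotation of GRCm38, where all 7 members are protein coding. Emx1 lies at chr6:85187438-85204462, Emx2 at chr19:59458372-59465357, Dmrta2 at chr4:109978053-109983687, Dmrt3 at chr19:25610301-25623921, Pax6 at chr2:105668900-105697364 and Lhx2 at chr2:38339281-38369733, all on the plus strand, and Nr2f1 at chr13:78188973-78199757 on the minus strand. Capitals mark the identical coding stretch, and lower case gives 6 coding bases on either side, read 5′ to 3′ along the gene.
Emx1, exon 2, chr6:85194157-85194182: aatcacTACGTGGTGGGAGCcgagcg
Emx2, exon 2, chr19:59461781-59461806: aaccatTACGTGGTGGGAGCggaaag
Dmrta2, exon 2, chr4:109980096-109980131: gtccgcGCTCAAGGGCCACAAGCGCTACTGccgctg
Dmrt3, exon 1, chr19:25610912-25610947: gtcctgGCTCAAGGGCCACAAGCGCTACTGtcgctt
Nr2f1, exon 1, chr13:78198278-78198348: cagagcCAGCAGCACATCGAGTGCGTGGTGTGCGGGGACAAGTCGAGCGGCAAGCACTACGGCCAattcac
Nr2f2, exon 1, chr7:70360046-70360116: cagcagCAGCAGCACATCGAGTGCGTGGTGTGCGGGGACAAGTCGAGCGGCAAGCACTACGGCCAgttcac

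The identical stretch was 14 bases long between Emx1 and Emx2, 24 between Dmrta2 and Dmrt3, and 59 between Nr2f1 and Nr2f2, and no longer one was found elsewhere in the transcripts compared. Droplet libraries of this kind are read near the 3′ end of a transcript, and the stretch ended 496 bases before that end in Emx1, 1524 in Emx2, 2367 in Dmrta2, 1986 in Dmrt3, 1733 in Nr2f1 and 3680 in Nr2f2. Genes on the opposite strand overlap 4 members, namely Pax6os1 with Pax6, Emx2os with Emx2, A830082K12Rik with Nr2f1, and Gm27197 and Gm13584 with Lhx2. Whether the counting used the strand is not given in the sources used here.

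After limits on genes and mitochondrial transcripts per cell, 10498 control cells (51657121 UMIs), 7209 Smo-cKO cells (42057782 UMIs) and 10185 and 13052 ferret cells (30548876 and 56090792 UMIs) remained. The median was 4033.5 UMIs per cell in control, 4836 in Smo-cKO, 2556 in ferret set 1 and 3563 in set 2, and 28 barcode sequences occurred in both mouse libraries and 38 in both ferret sets. Cells were typed by the number of type markers with a UMI, and no member was such a marker. RG-like cells outside the cell cycle (called RG below) numbered 1210 in control and 1055 in Smo-cKO, with medians of 4257.5 and 6491 UMIs, and 240 and 293 in the ferret sets. Cycling RG, intermediate progenitors (IPCs), cycling IPCs, newborn pyramidal neurons and older pyramidal neurons (PyNs) were set in the same way. The genotype of a mouse barcode suffix rests on the cell numbers that the study states, and if these were exchanged every direction between the libraries would turn. Smo stood at 16.4 CPM in control RG (89 UMIs) and 0.289 CPM in Smo-cKO RG (2 UMIs), and the SHH target Ptch1 at 21.4 and 1.59 CPM. Gli1, another target, had 26 UMIs in control RG and 0 in Smo-cKO RG, which by a floor of 3 counts over the type allows up to 0.434 CPM. Because each genotype is 1 library, no test was possible and genotype, embryo and preparation cannot be told apart. All intervals are 95% intervals and cover counting error only.

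Pax6, which drives RG proliferation and neurogenesis, was highest in progenitors in both species. In control it stood at 359 (344 to 376) CPM in RG, with the exact Poisson interval in parentheses, at 330.0 in cycling RG, 268 in IPCs, 114 in newborn PyNs and 91.1 in PyNs. In Smo-cKO the same types stood at 300.1 (287 to 313), 273, 257, 113 and 82.9 CPM. Both libraries thus ran down from RG to PyN, and the ratio of RG over PyN, with its exact conditional binomial interval, was 3.95 (3.56 to 4.38) for control and 3.62 (3.24 to 4.04) for Smo-cKO. Ferret PAX6 stood at 117 and 172 CPM in RG, 53.9 and 113 in IPCs, 45.3 and 45.6 in newborn PyNs and 7.18 and 5.41 in PyNs of sets 1 and 2. Ferret RG over PyN was 16.3 (12.2 to 21.5) for set 1 and 31.8 (25.8 to 39.1) for set 2. The PyN level was close to that of ferret microglia, a cell type that should lack the gene, at 10.5 and 3.69 CPM, whereas mouse PyNs exceeded mouse microglia 5.31 (3.28 to 9.19) times in control and 6.12 (4.08 to 9.58) times in Smo-cKO. Ferret PyNs also carried more of the RG marker list than mouse PyNs did relative to RG of their own library, at 6695 and 4529 CPM in ferret PyNs against 31158 and 29829.7 in ferret RG, and 811 and 979 against 29289 and 33271 in mouse, with 0 of 14 markers at 0 in each.

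Lhx2, which keeps progenitors cortical, was lowest in RG among the mouse excitatory types and highest in RG and cycling RG among the ferret ones. Control levels were 258 CPM in RG, 310.3 in cycling RG, 424 in IPCs, 614 in newborn PyNs and 515 in PyNs. Smo-cKO levels in that order were 294, 320.0, 434, 686 and 621 CPM. Mouse RG over PyN was 0.502 (0.470 to 0.536) in control and 0.473 (0.447 to 0.501) in Smo-cKO. Ferret LHX2 stood at 346 and 511 CPM in RG, 173 and 293 in IPCs, 231 and 284 in newborn PyNs and 117 and 114 in PyNs. RG over PyN was therefore above 1 in ferret, at 2.94 (2.56 to 3.37) for set 1 and 4.49 (4.08 to 4.92) for set 2. Species, embryonic stage and the sorting of dye-carrying mouse cells cannot be told apart in this or any other contrast of mouse and ferret given here.

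Emx1 was low in mouse RG and higher in the cells that RG produce. It stood at 61.7 CPM in control RG, 177 in IPCs, 206 in newborn PyNs and 177 in PyNs, and at 68.8, 179.9, 199 and 177 CPM in Smo-cKO. The highest type was the newborn PyN in both libraries, and newborn PyN over RG was 3.34 (2.98 to 3.75) in control and 2.89 (2.62 to 3.20) in Smo-cKO. Ferret EMX1 was highest in IPCs, at 78.6 and 113 CPM, and stood at 40.9 and 52.9 in RG, so that RG over IPC was 0.521 (0.303 to 0.886) for set 1 and 0.469 (0.329 to 0.663) for set 2. RG over PyN fell on different sides of 1, at 0.632 (0.415 to 0.924) for set 1 and 1.14 (0.850 to 1.51) for set 2. Ferret microglia held 24.5 and 22.2 CPM of EMX1.

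Emx2, which opposes Pax6 along the area gradient, varied little along the mouse excitatory lineage. Control levels were 61.5 CPM in RG, 57.3 in cycling RG, 45.9 in IPCs, 45.1 in newborn PyNs and 43.7 in PyNs. Smo-cKO levels were 95.7, 96.0, 76.2, 74.1 and 69.2 CPM. Neighbouring types from IPC to PyN had overlapping intervals in both libraries. Ferret EMX2 stood at 246 and 272 CPM in RG, 224 and 333 in IPCs, 311 and 322 in newborn PyNs and 131 and 91.3 in PyNs, beside 66.4 and 44.3 in microglia. Newborn PyN over RG lay above 1 in ferret, at 1.27 (1.05 to 1.52) and 1.18 (1.03 to 1.35), and below 1 in mouse, at 0.734 (0.641 to 0.841) in control and 0.774 (0.698 to 0.858) in Smo-cKO.

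The highest Emx2 of the 10 types compared was in Cajal-Retzius cells, early marginal zone neurons that arise at the borders of the cortex, in each library. These cells were few, with 20 in control, 4 in Smo-cKO, and 11 and 17 in the ferret sets. Emx2 stood at 373 (286 to 478) CPM in control and 209 (90.4 to 413) CPM in Smo-cKO, and EMX2 at 638 (463 to 856) and 425 (320.5 to 554) CPM. A UMI was found in 16 of 20 control and 3 of 4 Smo-cKO cells, and in 11 of 11 and 16 of 17 ferret cells. Cajal-Retzius over RG was 6.07 (4.55 to 7.98) in control, 2.19 (0.94 to 4.33) in Smo-cKO, and 2.60 (1.82 to 3.64) and 1.56 (1.15 to 2.09) in the ferret sets, so that the interval included 1 in Smo-cKO. Pax6 and Nr2f1 were lower there than in RG in control, with ratios of 0.100 (0.0368 to 0.219) and 0.166 (0.0715 to 0.327), and LHX2 was lower in both ferret sets, at 0.126 (0.0258 to 0.372) and 0.151 (0.0721 to 0.280). Dmrt3 had 3 UMIs in the control and 1 in the Smo-cKO Cajal-Retzius cells.

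**Figure D1:**
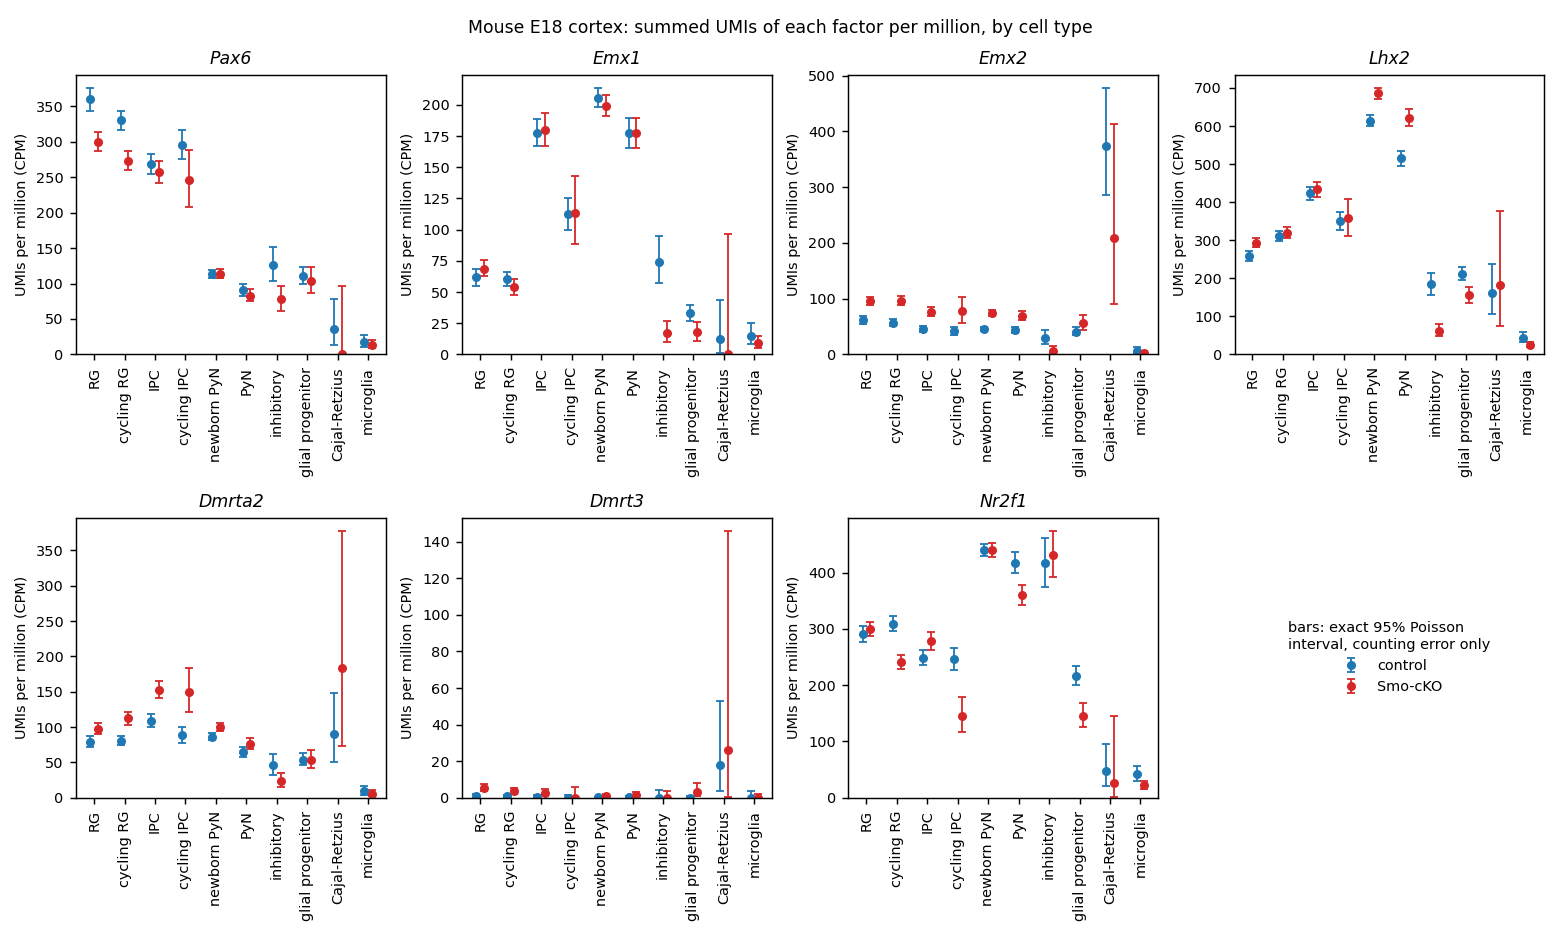
Levels of the 7 factors in mouse cortex at E18 in CPM (linear axis from 0, with its own scale for each gene) over 10 cell types, control in blue and Smo-cKO in red. Points are sums over the cells of 1 library and bars are exact 95% Poisson intervals; Pax6 runs down from 359 CPM in control RG to 91.1 in PyNs, and Emx2 is higher in Smo-cKO in all 6 types from RG to PyN.

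Dmrta2, a doublesex-related factor of medial cortex, was highest in IPCs among mouse types with over 50 cells per library, with an interval that overlapped that of cycling IPCs. It stood at 79.3 CPM in RG, 109 in IPCs, 86.6 in newborn PyNs and 64.5 in PyNs of control, and at 97.9, 152, 99.9 and 76.0 CPM in Smo-cKO. Ferret DMRTA2 was far lower in PyNs than in RG, at 4.97 and 3.98 against 59.1 and 67.1 CPM, and RG over PyN was 11.9 (8.01 to 17.3) for set 1 and 16.9 (12.4 to 22.7) for set 2. In mouse this ratio was 1.23 (1.06 to 1.43) in control and 1.29 (1.13 to 1.47) in Smo-cKO. Mouse PyNs came from the dye-sorted cells, and held on average 1.99 (control) and 2.05 (Smo-cKO) of the 10 IPC markers. Ferret PyNs held 0.487 and 0.679 of them, and the part of this in the contrast was not tested. Dmrt3, the relative of Dmrta2, was close to the limit of detection, with 5 UMIs in control RG and 37 in Smo-cKO RG, or 0.920 (0.299 to 2.15) and 5.35 (3.77 to 7.38) CPM. Ferret DMRT3 had 5 and 7 UMIs in RG, at 7.58 and 7.12 CPM. Microglia had 0 Dmrt3 or DMRT3 UMIs in each library.

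Nr2f1, an orphan nuclear receptor, was as high in inhibitory lineage cells as in mouse PyNs. It stood at 290.3 CPM in control RG, 249 in IPCs, 440.2 in newborn PyNs, 417 in PyNs and 417 in inhibitory cells. Smo-cKO levels in that order were 299.8, 279, 439.8, 360.2 and 431 CPM. Inhibitory cells over PyNs was 0.998 (0.890 to 1.12) in control and 1.20 (1.07 to 1.33) in Smo-cKO, and in ferret, where inhibitory cells had the highest NR2F1 of the 10 types, 1.97 (1.49 to 2.55) for set 1 and 3.52 (3.27 to 3.78) for set 2. In set 1, with 83 inhibitory cells, their interval (181 to 308 CPM) overlapped that of newborn PyNs (182 to 230 CPM). The ferret sets themselves differed in RG, with NR2F1 at 169.7 and 81.3 CPM, a ratio of set 1 over set 2 of 2.09 (1.55 to 2.82). LHX2 and PAX6 differed the other way, with ratios of 0.676 (0.575 to 0.792) and 0.679 (0.512 to 0.894). What separates the sets is not given in the sources used here.

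**Figure D2:**
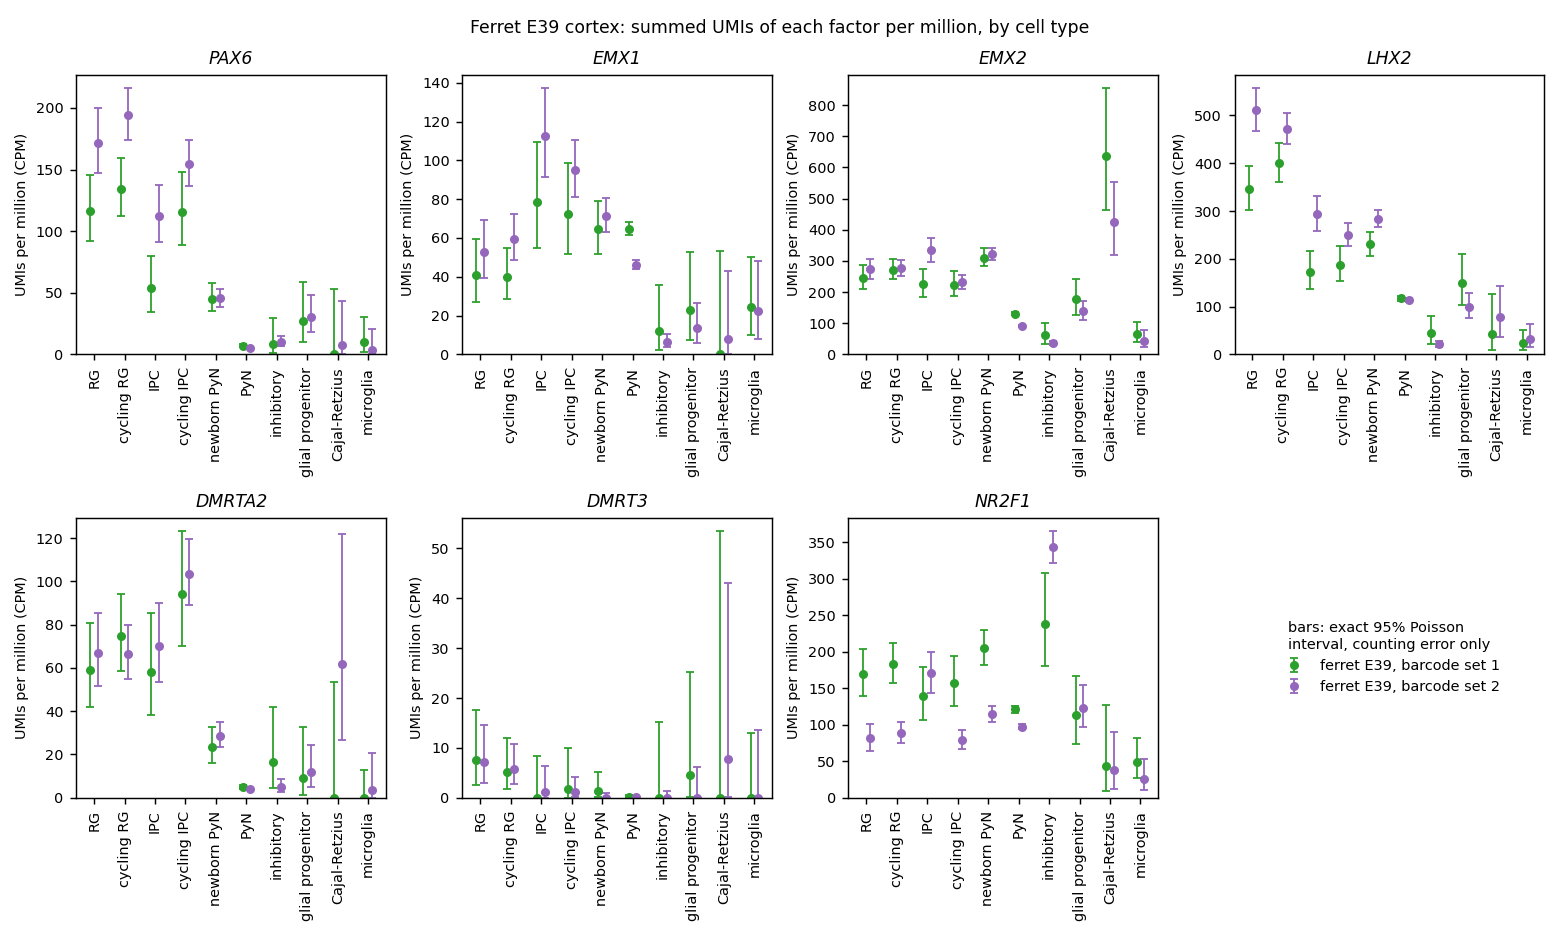
Levels of the 7 factors in ferret cortex at E39 in CPM (linear axis from 0, with its own scale for each gene) over the same 10 cell types, barcode set 1 in green and set 2 in purple, with exact 95% Poisson intervals as bars. EMX2 peaks in Cajal-Retzius cells at 638 and 425 CPM, NR2F1 in inhibitory cells at 238 and 343 CPM, and PAX6 and DMRTA2 are low in PyNs. In set 1 the NR2F1 interval of inhibitory cells overlaps that of newborn PyNs.

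From RG to PyN, 6 of the 7 members had at least 50 UMIs in each library, Dmrt3 being below. In each mouse library 1 of the 6 was at least 1.5-fold higher in RG, Pax6, and 2 were at least 1.5-fold lower, Emx1 and Lhx2. Among all genes with 50 UMIs 24.4% were as much higher and 24.4% as much lower in control, and 25.4% and 25.9% in Smo-cKO. In each ferret set 4 of the 6 were at least 1.5-fold higher in RG, namely PAX6, EMX2, LHX2 and DMRTA2, where the background was 25.9% in set 1 and 28.7% in set 2. EMX1 was the 1 member as much lower in set 1 and 0 were in set 2, with backgrounds of 25.5% and 25.3%.

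**Figure D3:**
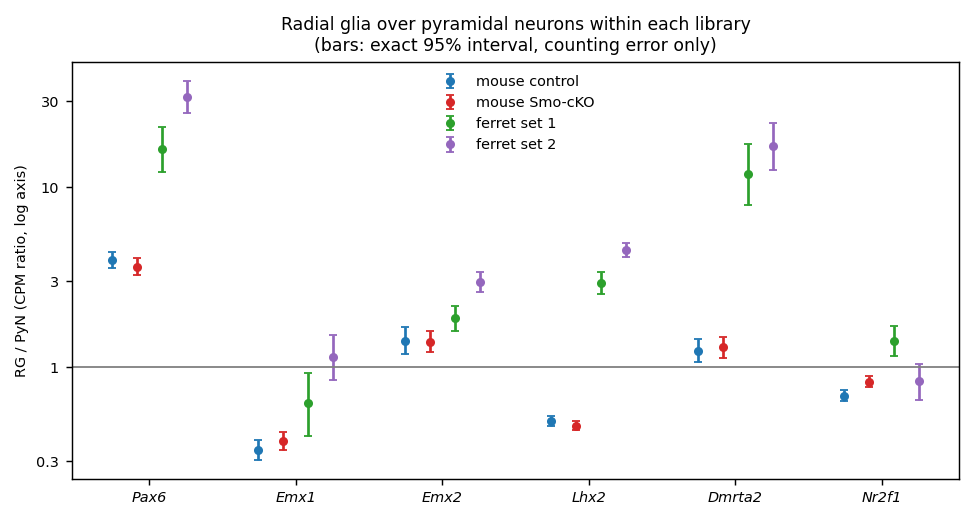
CPM in RG over CPM in PyNs (log axis, grey line at 1) for 6 members in the mouse libraries and the ferret sets, with exact 95% conditional binomial intervals. Lhx2 lies at 0.502 and 0.473 in mouse and at 2.94 and 4.49 in ferret, and Pax6 is above 1 in all 4. Species, stage and the sorting of mouse cells cannot be told apart.

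Layer markers divided PyNs further. Ferret upper layer PyNs (2022 and 2468 cells) held more EMX2, LHX2 and NR2F1 than deep layer PyNs (638 and 1747 cells). EMX2 stood at 126 and 102 CPM in upper and 81.3 and 51.5 CPM in deep layer PyNs, ratios of 1.55 (1.34 to 1.81) and 1.99 (1.80 to 2.19). The ratios were 1.68 (1.44 to 1.97) and 1.99 (1.82 to 2.17) for LHX2, and 1.76 (1.51 to 2.05) and 2.01 (1.83 to 2.20) for NR2F1. For EMX1 both intervals included 1, at 1.19 (0.992 to 1.44) and 1.05 (0.937 to 1.18). Ferret PAX6 was near its microglial level, at 6.72 and 5.90 CPM in upper and 5.32 and 3.01 in deep layer PyNs. Mouse deep layer PyNs numbered only 41 and 74, and Pax6 was lower in upper than in deep layer PyNs, at 0.513 (0.326 to 0.841) in control and 0.581 (0.395 to 0.870) in Smo-cKO. Mouse Nr2f1 stood at 372 CPM in upper against 516 in deep layer PyNs of control, and 350.2 against 309.5 in Smo-cKO. Emx2 stood at 47.1 against 58.7 and 63.6 against 87.1, and Lhx2 at 489 against 405 and 627 against 556.

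Comparing the mouse libraries asks how these factors stood in cortex in which SMO had been removed. In RG, Emx2 was higher in Smo-cKO, at 95.7 CPM (662 UMIs) against 61.5 CPM (334 UMIs), a ratio of 1.56 (1.36 to 1.78). Dmrta2 and Lhx2 were higher as well, at 97.9 against 79.3 CPM, a ratio of 1.23 (1.09 to 1.40), and 294 against 258 CPM, a ratio of 1.14 (1.06 to 1.22). Pax6 was lower, at 300.1 against 359 CPM, a ratio of 0.835 (0.784 to 0.888), while the intervals of Emx1, 1.12 (0.969 to 1.29), and Nr2f1, 1.03 (0.967 to 1.10), included 1. In RG 1 of the 6 members with 50 UMIs was at least 1.5-fold higher, against 6.58% of 10196 genes, and 0 were at least 1.5-fold lower, against 4.67%. The interval lay above 1 for 3 of 6, against 15.2% of genes, and below 1 for 1, against 13.9%. The median log2 ratio was 0.17 over the 6 members and 0.01 over all 10196 genes. The paper had reported Emx2, Dmrta2 and Lhx2 as higher in RG of these libraries, although its adjusted p-value for Lhx2 did not reach significance. The members were chosen with such results known. These counts are therefore no independent support, and the background takes in genes from 50 UMIs, whose intervals are wider. In control and Smo-cKO RG the summed lists of cell types outside the excitatory lineage stood at 3.13 and 10.8 CPM for microglia markers (1 of 9 and 2 of 9 at 0), 12.7 and 16.3 CPM for vascular markers (4 of 9 and 2 of 9 at 0), 3.13 and 5.93 CPM for inhibitory markers (4 of 9 and 2 of 9 at 0) and 5.34 and 3.90 CPM for Cajal-Retzius markers (2 of 6 and 2 of 6 at 0). Glial progenitor markers stood at 109.5 and 89.2 CPM (2 of 6 at 0 in each), and choroid plexus markers at 17.7 and 18.9 CPM (1 of 3 at 0 in each). Lists of the excitatory lineage were higher, with 579 and 499.6 CPM of IPC markers, 297 and 276 of upper layer markers, 165 and 215 of deep layer markers and 132 and 121 of PyN markers, and the part of any of these lists in the ratios was not tested.

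Shares of cells with a UMI depend on depth, which was greater in Smo-cKO RG, so they were also computed as the share expected at 2900 UMIs per cell, over the 1046 control and 945 Smo-cKO RG that reach it. Emx2 had a UMI in 22.9% of control RG (277 cells, Clopper-Pearson interval 20.6% to 25.4%) and 41.3% of Smo-cKO RG (436 cells, 38.3% to 44.4%), and at 2900 UMIs in 16.6% and 23.2%. In microglia, at medians of 8258 and 7575 UMIs, the shares were 6.19% and 2.26%. For Pax6 the direction turned with depth, from 72.6% in control and 76.1% in Smo-cKO to 59.9% and 55.5% at 2900 UMIs, so the share at full depth is not read as a difference. Dmrt3 had a UMI in 0.413% and 3.22% of RG, and in 0.368% and 1.43% at 2900 UMIs. A single RG cell held on average 2.07 of the 7 factors in control and 2.24 in Smo-cKO at 2900 UMIs, and a microglial cell 0.317 and 0.17.

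Emx2 was higher in Smo-cKO in the other excitatory types too. Smo-cKO over control was 1.68 (1.47 to 1.91) in cycling RG, 1.66 (1.41 to 1.96) in IPCs, 1.87 (1.30 to 2.64) in cycling IPCs, 1.64 (1.48 to 1.83) in newborn PyNs and 1.58 (1.33 to 1.89) in PyNs. Dmrta2 stood at 1.39 (1.24 to 1.56), 1.40 (1.25 to 1.56), 1.69 (1.32 to 2.16), 1.15 (1.06 to 1.25) and 1.18 (1.01 to 1.38) in the same order. All 6 types from RG to PyN thus had intervals above 1 for both genes. Dmrt3 over all kept cells had 21 UMIs in control and 109 in Smo-cKO, or 0.407 and 2.59 CPM, a ratio of 6.38 (3.97 to 10.7), and in RG alone the ratio was 5.81 (2.28 to 19.0). That RG ratio was 3.05 with cells thinned to 2900 UMIs and 14.2 in RG of cluster 9 of a clustering given further on, where it rests on 13 and 1 UMIs. In RG of cluster 10 there were 0 Smo-cKO and 4 control UMIs, and in cluster 11 there were 23 and 0.

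Pax6 over the same order was 0.828 (0.776 to 0.883) in cycling RG, 0.957 (0.884 to 1.04) in IPCs, 0.833 (0.696 to 0.992) in cycling IPCs, 0.997 (0.925 to 1.07) in newborn PyNs and 0.911 (0.793 to 1.05) in PyNs. Its intervals lay below 1 in RG, cycling RG and cycling IPCs, and whether these types differ from the others was not tested. Lhx2 stood at 1.12 (1.08 to 1.15) in newborn PyNs and 1.21 (1.14 to 1.27) in PyNs, while its intervals included 1 in cycling RG, 1.03 (0.969 to 1.10), IPCs, 1.02 (0.963 to 1.09), and cycling IPCs, 1.02 (0.878 to 1.18). Emx1 had an interval that included 1 in all 6 types. Nr2f1 had no common direction, at 0.778 (0.727 to 0.833) in cycling RG, 0.592 (0.469 to 0.738) in cycling IPCs, 1.12 (1.04 to 1.21) in IPCs, 0.999 (0.962 to 1.04) in newborn PyNs and 0.863 (0.808 to 0.921) in PyNs.

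Counted over the 6 members, Emx2 was the 1 at least 1.5-fold higher in cycling RG, IPCs, newborn PyNs and PyNs, and 0 were as much lower. The background of genes as much higher and lower was 5.72% and 5.51% in cycling RG, 6.07% and 2.97% in IPCs, 4.56% and 3.64% in newborn PyNs, and 4.28% and 3.05% in PyNs. By the interval, 2 members were higher and 2 lower in cycling RG (background 13.8% and 16.1%), and 3 and 0 in IPCs (15.1% and 7.91%). In newborn PyNs 3 were higher and 0 lower (19.7% and 11.7%), and in PyNs 3 and 1 (12.6% and 8.25%). Cycling IPCs, of which Smo-cKO had 81, differed in count, with 2 members at least 1.5-fold higher, Emx2 and Dmrta2, and 1 as much lower, Nr2f1, against 7.25% and 8.18% of genes. By the interval 2 were higher and 2 lower there, against 7.88% and 6.54%. The limits given for the RG counts hold for all of these counts too.

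**Figure D4:**
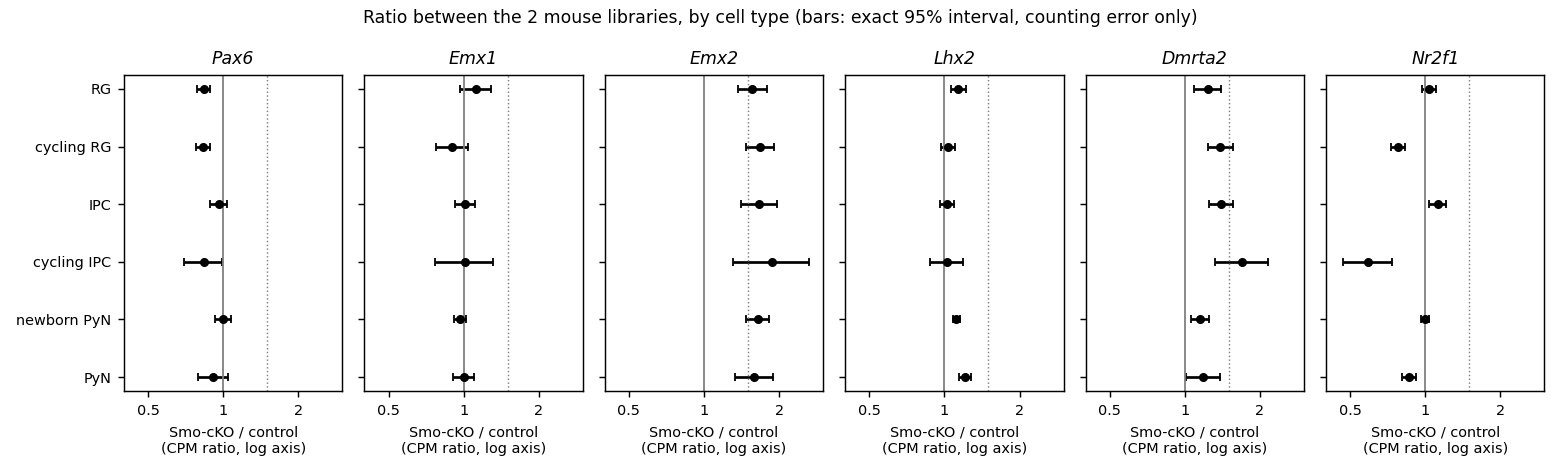
CPM in Smo-cKO over CPM in control (log axis, grey line at 1, dotted line at 1.5) for 6 members in 6 types from RG to PyN, 1 library per genotype, with exact 95% conditional binomial intervals. Emx2 lies between 1.56 and 1.87, Dmrta2 between 1.15 and 1.69, and Emx1 between 0.897 and 1.12.

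Pax6, Emx1, Emx2, Lhx2 and Dmrta2 stood lower in inhibitory lineage cells of Smo-cKO, where the share of all genes that were lower was not computed. Emx1 stood at 16.9 CPM in Smo-cKO against 74.4 in control, a ratio of 0.227 (0.125 to 0.393), Emx2, with 7 and 26 UMIs, at 0.234 (0.0858 to 0.554), Lhx2 at 0.335 (0.246 to 0.452), Dmrta2 at 0.522 (0.301 to 0.887) and Pax6 at 0.617 (0.455 to 0.832). Nr2f1 did not share this, at 1.03 (0.898 to 1.19). Ptch1, which was much lower in Smo-cKO RG, stood at 1.14 (0.605 to 2.20) here, with 19 control and 25 Smo-cKO UMIs. Smo had 4 and 2 UMIs, too few to show whether it was lost in these cells. The 173 control cells of this type also held more of the RG marker list than the 277 Smo-cKO cells (3702 against 1733 CPM, 0 of 14 at 0 in each), of the IPC list (907 against 415 CPM, 0 of 10 and 2 of 10 at 0) and of the cycling list (1121 against 262 CPM, 0 of 10 at 0 in each). Their own list stood at 1527 and 2521 CPM, and the part of these lists in the ratios was not tested.

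Glial progenitors (371 control and 99 Smo-cKO cells, at medians of 7535 and 12322 UMIs) held Lhx2 at 155 CPM in Smo-cKO against 212 in control, a ratio of 0.732 (0.622 to 0.858). Nr2f1 was lower as well, at 146 against 217 CPM, a ratio of 0.673 (0.570 to 0.791), and Emx1 stood at 0.534 (0.324 to 0.847). Emx2 was higher, at 56.6 against 41.0 CPM, a ratio of 1.38 (1.02 to 1.85), and the intervals of Dmrta2, 0.993 (0.740 to 1.32), and Pax6, 0.937 (0.762 to 1.15), included 1. Dmrt3 had 0 UMIs in control and 4 in Smo-cKO glial progenitors. Smo had 24 and 0 UMIs there, and Ptch1 stood at 0.453 (0.273 to 0.720). In ferret glial progenitors (53 and 126 cells) EMX2 stood at 177 and 138 CPM, LHX2 at 149.5 and 99.5 and PAX6 at 27.2 and 30.4.

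The RG of the mouse libraries fell largely into different clusters. When all mouse cells were clustered without the members and without joining the libraries, 652 control RG (53.9%) but 57 Smo-cKO RG (5.40%) fell in cluster 10, led by Sparcl1 and Fgfbp3, and 27 control RG (2.23%) but 678 Smo-cKO RG (64.3%) in cluster 11, led by Prm1, Id3 and Cdkn1a. The paper reports Id3 and Cdkn1a as higher in RG without SMO. Because the libraries were not joined, a different mixture of RG and changed expression within the same RG cannot be told apart here. Cluster 9, led by Gadd45g and Insm1, which were also IPC markers, held 400 control RG (33.1%) and 232 Smo-cKO RG (22.0%). There Emx2 stood at 97.6 against 63.6 CPM, a ratio of 1.54 (1.20 to 1.97), Pax6 at 357 against 484 CPM, a ratio of 0.737 (0.662 to 0.820), and Lhx2 at 272 against 221 CPM, a ratio of 1.23 (1.07 to 1.41). The intervals included 1 for Dmrta2, 1.16 (0.927 to 1.44), Emx1, 1.26 (0.987 to 1.61), and Nr2f1, 1.09 (0.970 to 1.22). In cluster 10, where few Smo-cKO RG lay, Emx2 was on the other side of 1, at 0.705 (0.368 to 1.24) with 13 and 174 UMIs, and so were Dmrta2, at 0.516 (0.254 to 0.944), and Lhx2, at 0.722 (0.544 to 0.942). Emx1 there stood at 0.354 (0.128 to 0.787) with 6 and 160 UMIs, Nr2f1 at 1.31 (1.06 to 1.61) and Pax6 at 0.835 (0.657 to 1.05). In cluster 11, which holds most Smo-cKO RG but few control RG, Emx2 stood at 2.45 (1.12 to 6.70) with 462 and 6 UMIs and Nr2f1 at 1.60 (1.09 to 2.46), and Pax6 was on the other side of 1 than over all RG, at 1.16 (0.837 to 1.65). The intervals of Emx1, 1.33 (0.637 to 3.34), Lhx2, 1.27 (0.914 to 1.82), and Dmrta2, 2.06 (0.992 to 5.15), included 1. The lower Pax6 of Smo-cKO RG was thus seen in cluster 9 with an interval below 1, and not in each cluster.

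Over the clusters of all cell types with at least 50 cells of each library and 50 UMIs of the gene, Emx2 was higher in Smo-cKO in 12 of 13, with the interval above 1 in 11 and below 1 in 0, a median ratio of 1.58 and a range from 0.869 to 2.03. These minimums left out clusters in which Emx2 was lower. It stood at 0.213 (0.0617 to 0.594) with 23 UMIs in cluster 20, where inhibitory cells were commonest. In clusters 4, 18 and 19, also under 50 UMIs, it was 1.57, 0.789 and 0.449, with intervals including 1. Cluster 11, with most Smo-cKO RG, had under 50 control cells and was not counted. Dmrta2 was higher in 12 of 14, with a median of 1.26, and its interval lay below 1 in cluster 10, at 0.533 (0.281 to 0.925). Under 50 UMIs, Dmrta2 stood at 0.465 (0.239 to 0.880) in cluster 20, 0.659 in cluster 19 and 1.72 in cluster 18. The other medians were 0.886 for Pax6 over 15 clusters, 0.999 for Emx1 over 16, 1.02 for Lhx2 over 17 and 0.857 for Nr2f1 over 17, with ratios on both sides of 1 for each gene. These clusters come from the same pair of libraries and are not replicates.

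**Figure D5:**
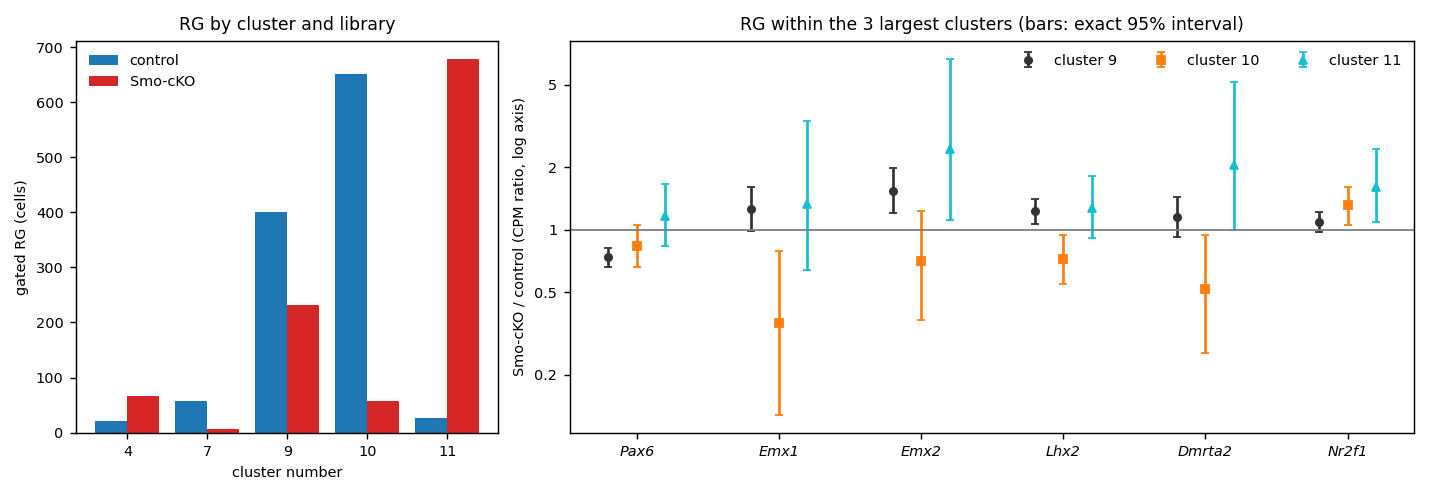
Left, number of RG in each of 5 clusters for control (blue) and Smo-cKO (red), with bars from 0; right, CPM in Smo-cKO over control (log axis, grey line at 1) for 6 members in RG of clusters 9, 10 and 11, with exact 95% conditional binomial intervals. Most control RG lie in cluster 10 (652 cells) and most Smo-cKO RG in cluster 11 (678 cells), and Emx2 lies above 1 in clusters 9 and 11 and below 1 in cluster 10.

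Among single mouse RG, cells with a Pax6 UMI held more Nr2f1 than cells without one, at 308 against 236 CPM in 879 and 331 control cells and 322 against 198 CPM in 803 and 252 Smo-cKO cells. The ratios were 1.31 (1.15 to 1.48) and 1.63 (1.42 to 1.87), and in the ferret sets 1.02 (0.665 to 1.54) and 0.913 (0.565 to 1.46), where the intervals included 1. Cells with a Pax6 UMI were also deeper, at medians of 4405 against 3831 UMIs in control and 6824 against 5333 in Smo-cKO, and the part of depth was not tested. Emx1 stood lower in RG with an Nr2f1 UMI than in those without, at ratios of 0.817 (0.656 to 1.02) in control, 0.793 (0.656 to 0.962) in Smo-cKO, and 0.797 (0.285 to 1.96) and 0.441 (0.154 to 1.04) in the ferret sets, of which the Smo-cKO interval alone left out 1.

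Other regional genes were read in RG from lists of such genes. Among all genes with 50 UMIs in RG 6.58% were at least 1.5-fold higher and 4.67% as much lower in Smo-cKO, with a median log2 ratio of 0.01. Of 25 regional factors 21 had 50 UMIs, 4 were at least 1.5-fold higher and 0 as much lower in Smo-cKO, and their median log2 ratio was 0.11. The 4 were Nr2f2 (COUP-TFII), the ETS factors Etv4 and Etv5, which respond to FGF, and Sox3. Nr2f2 stood at 8.39 against 2.39 CPM (58 and 13 UMIs), a ratio of 3.51 (1.90 to 6.97), and reached 50 UMIs only through Smo-cKO. Etv4 stood at 49.6 against 18.8 CPM, a ratio of 2.64 (2.11 to 3.33), and Etv5 at 78.5 against 43.3 CPM, a ratio of 1.82 (1.55 to 2.12). Sox3 stood at 141 against 82.5 CPM, a ratio of 1.70 (1.52 to 1.91). Of 13 genes listed for the hem, the medial signalling centre, and for WNT signalling, 11 were among the mouse genes and 7 had 50 UMIs. Of these 2 were higher and 1 lower, with a median of 0.07. Rspo1, which enhances WNT signalling, stood at 6.36 against 1.29 CPM (44 and 7 UMIs), a ratio of 4.94 (2.21 to 13.0), and reached 50 UMIs largely through Smo-cKO. The ligand Wnt7b stood at 15.9 against 9.57 CPM, a ratio of 1.66 (1.18 to 2.36), and Bambi, a pseudoreceptor for BMPs, at 16.3 against 24.7 CPM, a ratio of 0.663 (0.511 to 0.857). Below the minimum, Rspo3 had 2 Smo-cKO and 7 control UMIs, Rspo2 0 and 1, and Lmx1a 1 and 0. Of 13 genes listed for the antihem and for FGF signalling, its responses included, 11 were among the mouse genes and 6 had 50 UMIs. Of these 0 were higher and 1 lower, Tgfa, at 4.34 against 9.76 CPM, a ratio of 0.445 (0.274 to 0.709), with a median of -0.03. Of 12 genes listed for the ganglionic eminence 11 were among the mouse genes and 1 had 50 UMIs, and it was not past 1.5-fold. Whether the libraries hold the same parts of the cortical sheet was not tested.

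Of the transcripts antisense to members, Emx2os stood at 21.7 CPM in Smo-cKO RG (150 UMIs) against 15.5 in control RG (84 UMIs), a ratio of 1.40 (1.07 to 1.86). It was 1.33 (0.857 to 2.07) in IPCs, 1.42 (1.06 to 1.90) in newborn PyNs and 1.89 (1.11 to 3.30) in PyNs, on the same side of 1 as Emx2. Pax6os1 in RG stood at 0.924 (0.570 to 1.51) and A830082K12Rik, opposite Nr2f1, at 0.917 (0.739 to 1.14). Reads of a gene and its antisense partner cannot be told apart where the strand was not used.

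The genes most like each member were found over 9 mouse types in both libraries, as Pearson's r of log2(CPM + 10) over 18 points and 9535 genes. For Pax6 they were Gm29260 (r = 0.985), Shisa4 and Oscp1, and for Emx1 Cacna2d1 (r = 0.976), a calcium channel subunit, Pou3f2, an upper layer factor, and Cul1. For Emx2 they were Grtp1 (r = 0.954), Paqr8 and Fzd2, a WNT receptor, and for Lhx2 the homeobox gene Meis2 (r = 0.974), Gm11266 and Pou3f2. Dmrta2 was most like Mdk (r = 0.968), Fezf2, which was also a layer marker, and Twsg1, and Nr2f1 most like C130071C03Rik (r = 0.982), Zmym4 and Zmynd11. In ferret, over 20 points, EMX2 and LHX2 were each among the 3 genes most like the other (r = 0.952). The points share libraries and depth, no test was made, and Dmrt3 had too few UMIs.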

How the data were processed

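Per the labels and the study's methods, droplet libraries (10x Genomics Chromium) were processed with Cell Ranger, and the authors deposited raw UMI counts per gene and cell, with no normalization. Aligner settings, genome build and strand use are not given in the sources used here. Cells were kept at 750 to 5000 genes and under 10% mitochondrial UMIs. A cell was typed by the markers detected in it: RG by at least 5 of 14 RG markers, at least 2 times as many RG as IPC markers and at most 2 PyN markers, IPCs, newborn PyNs and PyNs by at least 3 of their own, and other classes by at least 3. Cycling cells had at least 3 cycling or 4 S phase markers. Cells with markers of incompatible types were set aside as mixed (6.76% of control, 5.58% of Smo-cKO, 1.10% and 1.08% of the ferret sets), which also takes out part of the doublets, and no doublet caller was run. The names rest on these markers and are not the study's annotation.

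Counts were summed per type and library, as each genotype has a single library. Levels have exact Poisson, shares exact Clopper-Pearson and ratios exact conditional binomial 95% intervals, tested on simulated data (scipy 1.17.1, numpy 2.4.6, pandas 2.3.3, python 3.11.15). Shares were also computed for 2900 UMIs per cell. A gene counted in a comparison with 50 UMIs in both arms together. Clusters came from scanpy 1.11.5 (2000 variable genes without the members, 30 components, Leiden resolution 1). The members and all lists were chosen with earlier results of these data known. All 7 members were measured in every type, other genes were named past 1.5-fold with an interval leaving out 1, and the 3 most like genes by r. Alternatives were other gates, clusters, thinning, cell filters, scalings and count minimums. Gene places come from GENCODE for GRCm38, which holds 16568 of the 17170 mouse symbols.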

Additional observations from a re-analysis of the deposited data

Results flagged for a closer look

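Some members differed between the mouse libraries in opposite directions between cell types, with both intervals away from 1; the difference between the types was not tested. Emx2, as the ratio of Smo-cKO over control, stood at 1.87 in cycling IPCs and 0.234 in inhibitory lineage cells. Lhx2 stood at 1.21 in PyNs and 0.335 in inhibitory lineage cells, and Dmrta2 at 1.69 in cycling IPCs and 0.522 in inhibitory lineage cells. Nr2f1 stood at 1.12 in IPCs and 0.778 in cycling RG. It also stood at 0.537 in microglia, a type that should lack it, with 41 UMIs in each library. Lhx2 (0.573), Emx1 (0.608), Emx2 (0.537), Dmrta2 (0.656) and Pax6 (0.790) were below 1 there too, with intervals including 1 except for Lhx2. The microglial ratio is therefore not read as a change of Nr2f1. The 173 control and 277 Smo-cKO inhibitory cells also differed in RG, IPC and cycling markers, as given above. Glial progenitors also lay below 1 for Lhx2, at 0.732, and for Nr2f1, at 0.673.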

How the results depend on the processing

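No paired analysis was possible because each genotype has 1 library and the labels number no mouse pairs. Over the other gates, RG taken by clusters together, cell filters, scalings and thinning, the ratio of Smo-cKO over control in RG ranged from 1.47 to 1.64 for Emx2 and 1.20 to 1.32 for Dmrta2. It ranged from 1.06 to 1.16 for Lhx2 and 0.799 to 0.885 for Pax6, so each kept its direction over these settings. Within single clusters of RG directions did differ: below 1 in cluster 10 for Emx2 (0.705), Dmrta2 (0.516) and Lhx2 (0.722) and in cluster 7 for Lhx2 (0.807), and above 1 for Pax6 in clusters 7 and 11 (1.16 in each). Over the settings above Dmrt3 ranged from 3.05, thinned, to 6.66, with cells holding markers of another type left out. Within clusters of RG it was 14.2 in cluster 9 and 0 (0 to 14.3) in cluster 10, where 4 control and 0 Smo-cKO UMIs lay. With cycling RG included Lhx2 moved to 1.06 and Nr2f1 to 0.908, and Nr2f1 was 0.925 with cells thinned to 2900 UMIs, from 1.03. In cluster 9, an alternative added after seeing the data like the ratios within each cluster, Pax6 was 0.737, Lhx2 1.23 and Dmrta2 1.16. With each cell weighted equally Emx2 was 1.47, so that 0 members were past 1.5-fold. The share of all genes past 1.5-fold in RG was 10.9% higher and 7.66% lower at a minimum of 10 UMIs, and 3.75% and 2.59% at 200. With both ferret sets together RG over PyN was 0.910 for EMX1, with 1.14 without set 1 and 0.632 without set 2, and 1.10 for NR2F1, with 0.835 without set 1 and 1.40 without set 2. The causes were not tested. Depth limits Dmrt3 most, and no statement on neurons rests on it.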
